A study of Mus musculus with 10 samples.

Results

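The T cell receptor complex and T cell marker genes examined here were Cd3d, Cd3e, Cd3g, Cd4, Cd8a, Cd8b1, Thy1, Lat, Lck and Cd7, taken as every non-control probe that carries one of these 10 names, which gave 15 of 41174 probes for 10 of 27218 gene names. The probes were read on 10 one-colour Agilent arrays of mouse total RNA, 2 for each of 5 groups. Leukemic cells of mice 686, 713 and 760 (B cell acute lymphoblastic leukemia, B-ALL) came from lymph nodes of Ebf1+/- Pax5+/- animals, called dHet, which have 1 intact copy of each of 2 transcription factor genes of B cell identity. The dHet pro-B cells, early B cell precursors, were Ebf1+/- Pax5+/- Rag2-/- and grew in short-term culture from c-Kit positive fetal liver cells on a layer of OP9 stromal cells given the cytokines stem cell factor, Flt3L and IL-7. The wt pro-B material was Ebf1+/+ Pax5+/+, Fraction BC, sorted from bone marrow of control mice. Without Rag2 the dHet pro-B cells cannot rearrange antigen receptor genes, and they differ from the wt pro-B cells in genotype, tissue and culture at once.

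The T cell receptor is a pair of variable chains held at the surface by the CD3 chains (Cd3d, Cd3e, Cd3g) and the zeta chain (Cd247), whose cytoplasmic tyrosine motifs are phosphorylated when the receptor binds its ligand. Lck, a Src-family kinase carried by the coreceptors CD4 and CD8, phosphorylates these motifs, and the adaptor LAT, once phosphorylated by the kinase ZAP-70, gathers the signalling complex at the membrane. Thy1 is a surface glycoprotein of mouse T cells and some progenitors, and Cd7 encodes a surface protein of early T and NK cells. PAX5 is known to hold down genes of other lineages in B cell precursors.

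The sequences of 4 probes are printed because the results turn on their genes, 2 receptor chains, an adaptor and the coreceptor that was not detected. The Cd3d and Cd3g probes span more of the genome than their 60 bases, so they cross a splice junction. The Cd3d probe lies at chr9:44794171-44794402 and the Cd3g probe at chr9:44781716-44782300 (build mm9, plus and minus strand), the Lat probe at chr7:133507719-133507778 and a Cd4 probe at chr6:124817706-124817765 (both minus strand). Capitals mark codons that a search of the open reading frames found, namely the tyrosine-based activation pattern of CD3 chains (tyrosine and leucine or isoleucine in a repeated spacing) in Cd3d and a tyrosine followed at 1 residue's distance by asparagine, the kind of site that binds the adaptor GRB2, in Lat.
Cd3d: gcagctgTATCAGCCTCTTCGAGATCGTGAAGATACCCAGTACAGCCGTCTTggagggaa
Cd3g: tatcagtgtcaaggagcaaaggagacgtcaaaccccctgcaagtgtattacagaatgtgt
Lat: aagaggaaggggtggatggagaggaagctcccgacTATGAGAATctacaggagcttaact
Cd4: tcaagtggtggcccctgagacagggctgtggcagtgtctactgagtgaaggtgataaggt

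All levels below are log2 of the processed signal relative to the 75th percentile of the same array, so 0 is that percentile, and "detected" means well above background by the scanner software's mark. A gene was tested when a probe of it was detected on all arrays of at least 1 group. That left 10 of the 15 probes and 8 of the 10 genes, each read by its brightest kept probe, while Cd3g and Cd4 were not tested. Members that passed only through the group where they are high had to differ, so the counts of calls below describe and do not support. The arrays detected between 35.7% and 52.4% of all probes, the lowest being replicate 1 of leukemia 686, which detected 6 of the 15 member probes against 7 to 12 on all other arrays except 6 on dHet pro-B replicate 2 and wt pro-B replicate 1. No spot was saturated. The B cell genes Cd79a and Vpreb1 were detected on all 10 arrays, and Pax5 on 2 of 6 leukemia arrays and on all pro-B arrays. Of 12 tested B cell markers, 2 were called higher and 8 lower in leukemias than in wt pro-B cells, against 31.3% and 27.6% of all genes. Relative to dHet pro-B cells 1 was higher and 8 were lower, against 21.8% and 24.5%. Replicate 1 of every leukemia shared 1 slide, replicate 2 another, and the pro-B arrays one of their own. The first slide was scanned on another day than the rest. Slide and cell kind cannot be told apart between leukemias and pro-B cells. Whether both replicates of a group come from different animals or cultures is not stated, so p-values between pro-B groups or single leukemias measure the spread between these samples only.

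**Figure D1:**
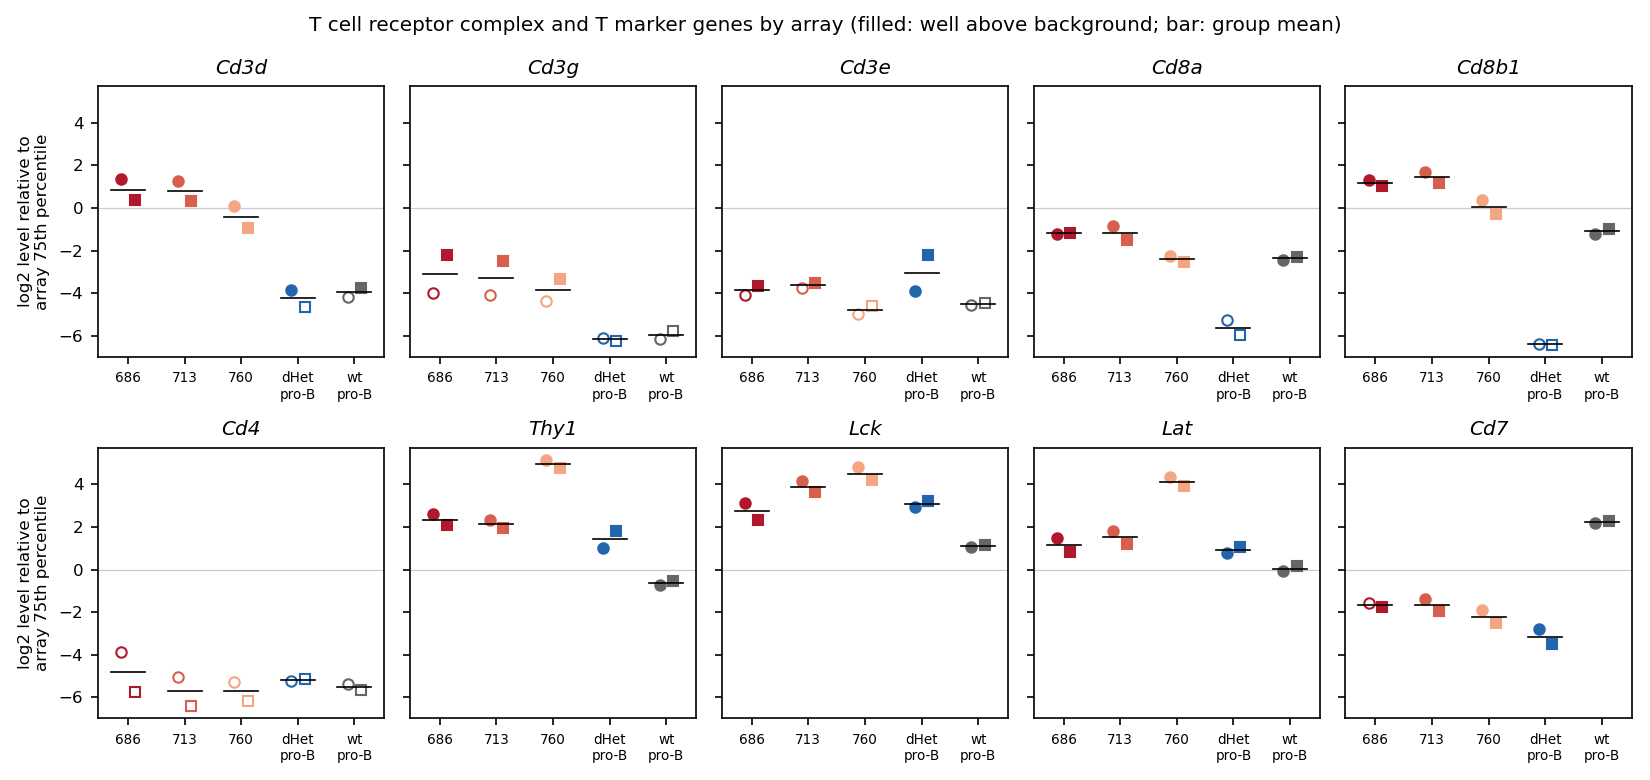
Log2 level relative to the array's 75th percentile (vertical axis) of each of the 10 genes in leukemias 686, 713 and 760, dHet pro-B and wt pro-B cells, with circles for replicate 1, squares for replicate 2, filled symbols for values well above background and bars for group means. Cd3d and Cd8b1 stand above both pro-B groups in all leukemias and lowest of these in 760, Thy1 and Lat stand highest in 760, Cd7 is highest in wt pro-B cells, and Cd4 is not above background on any array.

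Among the CD3 chains, Cd3d was higher in every leukemia than in either kind of pro-B cell, Cd3g was detected only in leukemias, and Cd3e passed in no comparison. Cd3d had levels of 1.34 and 0.38 in leukemia 686, 1.27 and 0.34 in 713 and 0.09 and -0.94 in 760, against -3.84 and -4.64 in dHet pro-B cells and -4.17 and -3.74 in wt pro-B cells. All 6 leukemia arrays lay above all 4 pro-B arrays, of which 1 in each group was detected. The gene rose by 4.37 ± 0.47 (SE) on the log2 scale in the leukemias relative to wt pro-B cells (20.6-fold, adjusted p = 0.000867) and by 4.65 ± 0.47 relative to dHet pro-B cells (25.2-fold, adjusted p = 0.00133). The dHet pro-B cells differed from wt pro-B cells by -0.29 ± 0.53 in Cd3d (adjusted p = 0.739).

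Cd3g, the gamma chain gene next to Cd3d and read from the other strand, was detected on the second leukemia slide only, at -2.18 in 686, -2.48 in 713 and -3.35 in 760. On the first slide its levels were -4.00, -4.08 and -4.35 in the same leukemias and not above background. The pro-B arrays were all undetected, between -6.22 and -6.07 in dHet and -6.15 and -5.77 in wt cells. With the pro-B arrays at their dimmest detected level, Cd3g was 1.57-fold higher in leukemias than in dHet and 1.63-fold higher than in wt pro-B cells. These values are not lower bounds, since Cd3g was detected on 3 of 6 leukemia arrays. Without the filter on dim probes its measured values differed by 2.74 ± 0.28 relative to dHet pro-B cells (adjusted p = 0.00244) and by 2.55 ± 0.28 relative to wt pro-B cells (adjusted p = 0.00149), in a test that uses levels below background.

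Cd3e, the epsilon chain that every CD3 dimer of the receptor contains, did not follow Cd3d. Its main probe gave -4.06 and -3.65 in 686, -3.73 and -3.53 in 713 and -4.99 and -4.62 in 760, against -3.91 and -2.21 in dHet pro-B and -4.57 and -4.44 in wt pro-B cells. Detection was limited to the second arrays of 686 and 713 and to both dHet pro-B arrays, and the leukemias overlapped both pro-B groups. The differences were 0.41 ± 0.57 relative to wt (adjusted p = 0.562), -1.03 ± 0.57 relative to dHet pro-B cells (adjusted p = 0.186) and 1.44 ± 0.50 between dHet and wt pro-B cells (at least 2.06-fold, adjusted p = 0.0721). Without dHet-proB replicate 1 that last difference was 2.29 and passed (adjusted p = 0.00739), as it did with array-median scaling (1.80, adjusted p = 0.0338) and with the slide as a random block (adjusted p = 0.0368). A second Cd3e probe was on no array above background.

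The CD8 chains, which form the coreceptor of cytotoxic T cells, moved together. Cd8b1, the beta chain gene, had 1.31 and 1.03 in 686, 1.68 and 1.19 in 713 and 0.37 and -0.26 in 760, against -6.36 and -6.40 in dHet pro-B cells and -1.20 and -0.97 in wt pro-B cells. The leukemias were highest, wt pro-B cells intermediate and dHet pro-B cells undetected, with no overlap between the 3 kinds. Cd8b1 rose by 1.97 ± 0.41 relative to wt pro-B cells (3.93-fold, adjusted p = 0.00844). It was at least 30.8-fold higher in leukemias than in dHet pro-B cells (adjusted p = 0.000491) and at least 7.82-fold lower in dHet than in wt pro-B cells (adjusted p = 4.66e-05). Without wt-proB replicate 1 the rise relative to wt was 1.86 and no longer passed (adjusted p = 0.0599).

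Cd8a, the alpha chain gene, had -1.21 and -1.17 in 686, -0.85 and -1.48 in 713 and -2.25 and -2.54 in 760, against -5.24 and -5.97 in dHet pro-B cells and -2.44 and -2.28 in wt pro-B cells. Leukemia 760 overlapped the wt arrays, 686 and 713 lay above them, and the dHet pro-B arrays were undetected. The leukemias were at least 5.54-fold above dHet pro-B cells (adjusted p = 0.00163), dHet pro-B cells were at least 3.23-fold below wt (adjusted p = 0.000506), and leukemias differed from wt by 0.78 ± 0.44 (adjusted p = 0.175, and 1.19 with adjusted p = 0.0151 without mouse 760). Under normexp with quantile normalization (0.52), quantile normalization (1.24), the authors' deposited values (0.48) and array-median scaling (1.34) the difference from wt did pass. Over the 10 arrays Cd8a and Cd8b1 correlated at r = 0.98 and Cd3d with Cd8b1 at r = 0.83, values that describe 5 groups of 2 arrays sharing slides. A further Cd8a probe gave r = 0.95 with the main probe and was also higher in leukemias than in dHet pro-B cells (adjusted p = 0.00717). The remaining Cd8a probe, detected on 2 leukemia arrays only and not tested, gave r = 0.58 with the main probe and differed by -0.27 between leukemias and wt pro-B cells.

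Cd4, the coreceptor gene of helper T cells, was not above background on any array with either probe. The printed probe lay between -6.39 and -3.88 in the leukemias, -5.21 and -5.13 in dHet pro-B cells and -5.63 and -5.35 in wt pro-B cells. Replicate 1 of leukemia 686, the array that detected fewest probes, gave the -3.88.

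Lck and Thy1 were higher than in wt pro-B cells both in the leukemias and in the non-leukemic dHet pro-B cells. Lck had 3.12 and 2.35 in 686, 4.13 and 3.62 in 713 and 4.82 and 4.18 in 760, against 2.95 and 3.21 in dHet pro-B cells and 1.05 and 1.16 in wt pro-B cells. All arrays detected it, the wt arrays were lowest, and leukemia 686 overlapped the dHet pro-B arrays. The kinase gene rose by 2.60 ± 0.49 in leukemias relative to wt (6.07-fold, adjusted p = 0.00606) and by 1.98 ± 0.34 in dHet relative to wt pro-B cells (3.94-fold, adjusted p = 0.00588), and differed by 0.62 ± 0.49 between leukemias and dHet pro-B cells (adjusted p = 0.336, and 1.11 with adjusted p = 0.0246 without mouse 686).

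Thy1 had 2.58 and 2.10 in 686, 2.34 and 1.93 in 713 and 5.15 and 4.76 in 760, against 1.03 and 1.82 in dHet pro-B cells and -0.72 and -0.56 in wt pro-B cells. Leukemia 760 was highest, then 713 and 686, then dHet pro-B and last wt pro-B cells, without overlap between the 3 kinds. It rose by 3.78 ± 0.87 in leukemias relative to wt (13.8-fold, adjusted p = 0.0122) and by 2.06 ± 0.33 in dHet relative to wt pro-B cells (4.18-fold, adjusted p = 0.00409), while leukemias differed from dHet pro-B cells by 1.72 ± 0.87 (adjusted p = 0.154). The rise relative to wt did not pass without wt-proB replicate 1 (3.70, adjusted p = 0.0710) or replicate 2 (3.86, adjusted p = 0.0624). The second Thy1 probe correlated with the first at r = 0.98 and passed in the same direction in both comparisons with wt.

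Lat had 1.50 and 0.80 in 686, 1.81 and 1.21 in 713 and 4.32 and 3.92 in 760, against 0.76 and 1.05 in dHet pro-B cells and -0.08 and 0.16 in wt pro-B cells. The adaptor gene was detected on every array, and its leukemia values ranged widely because 760 stood above the others. Its differences were 2.22 ± 0.88 relative to wt (adjusted p = 0.0721), 1.36 ± 0.88 relative to dHet pro-B cells (adjusted p = 0.246) and 0.86 ± 0.32 between dHet and wt pro-B cells (adjusted p = 0.0890). Without mouse 760 the difference from wt was 1.29 and passed (adjusted p = 0.00507), and without mouse 686 it was 2.77 and passed (adjusted p = 0.0458). With array-median scaling it was 2.78 (adjusted p = 0.0339), and the difference between dHet and wt pro-B cells, 1.22, then passed too (adjusted p = 0.0419). That last difference also passed, at 0.86, with the slide as a random block (adjusted p = 0.00694) and with slide 1 as a fixed block (adjusted p = 0.00553).

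Cd7 was lower than in wt pro-B cells both in the leukemias and in dHet pro-B cells. It had -1.58 and -1.75 in 686, -1.39 and -1.92 in 713 and -1.90 and -2.51 in 760, against -2.79 and -3.51 in dHet pro-B cells and 2.19 and 2.27 in wt pro-B cells. The wt arrays were far above all others, replicate 1 of 686 was not above background, and the dHet pro-B arrays were lowest, without overlap. Cd7 fell by 4.07 ± 0.28 in leukemias relative to wt (16.8-fold lower, adjusted p = 0.000311) and by 5.38 ± 0.33 in dHet relative to wt pro-B cells (41.6-fold lower, adjusted p = 8.61e-05). It was 1.31 ± 0.28 higher in leukemias than in dHet pro-B cells (adjusted p = 0.0126), which became 0.94 without dHet-proB replicate 2 (adjusted p = 0.0752).

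Markers of other cells moved in both directions beside Cd7 and the CD8 genes. Of 10 dendritic cell markers, 1 rose and 3 fell in leukemias relative to wt among 6 tested, where 31.3% of all genes rose and 27.6% fell. In dHet relative to wt pro-B cells none rose (1 at an unadjusted p under 0.05) and 2 fell, where 15.6% of all genes rose and 14.2% fell. Flt3, a cytokine receptor gene, rose by 2.43 ± 0.80 in leukemias relative to wt. Siglech, a receptor of plasmacytoid dendritic cells, was detected on 1 of 6 leukemia arrays, on no dHet pro-B array and on both wt arrays, and fell by 4.64 ± 0.37 relative to wt (adjusted p = 0.000401). A summed level is the log2 of the sum of a list's unlogged levels, in which the brightest genes weigh most. For the 10 it ran from 3.99 to 5.32 in leukemias, 3.80 to 3.88 in dHet pro-B and 4.51 to 4.51 in wt pro-B cells. Of 11 measured myeloid markers, 1 rose and 5 fell in leukemias among 9 tested, and 6 fell in dHet relative to wt pro-B cells, with summed levels of 3.81 to 7.17 in leukemias, 4.43 to 4.59 in dHet pro-B and 6.27 to 7.25 in wt pro-B cells. Their part in the Cd7 and CD8 levels of wt cells was not tested, and in bulk RNA fewer cells of a type and less RNA per cell cannot be told apart.

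In counts, 4 member genes rose and 1 fell in leukemias relative to wt pro-B cells, where 31.3% of all 14455 genes rose and 27.6% fell. Relative to dHet pro-B cells 4 rose and none fell, against 21.8% and 24.5% of all genes, and 0 members fell at an unadjusted p under 0.05. Between dHet and wt pro-B cells 2 rose and 3 fell, against 15.6% and 14.2%. The medians of the 8 tested members were 2.10, 1.54 and 0.29 in these comparisons, against 0.06, -0.06 and 0.13 over all genes. The comparisons with one pro-B group share leukemia arrays and those with wt share wt arrays.

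**Figure D2:**
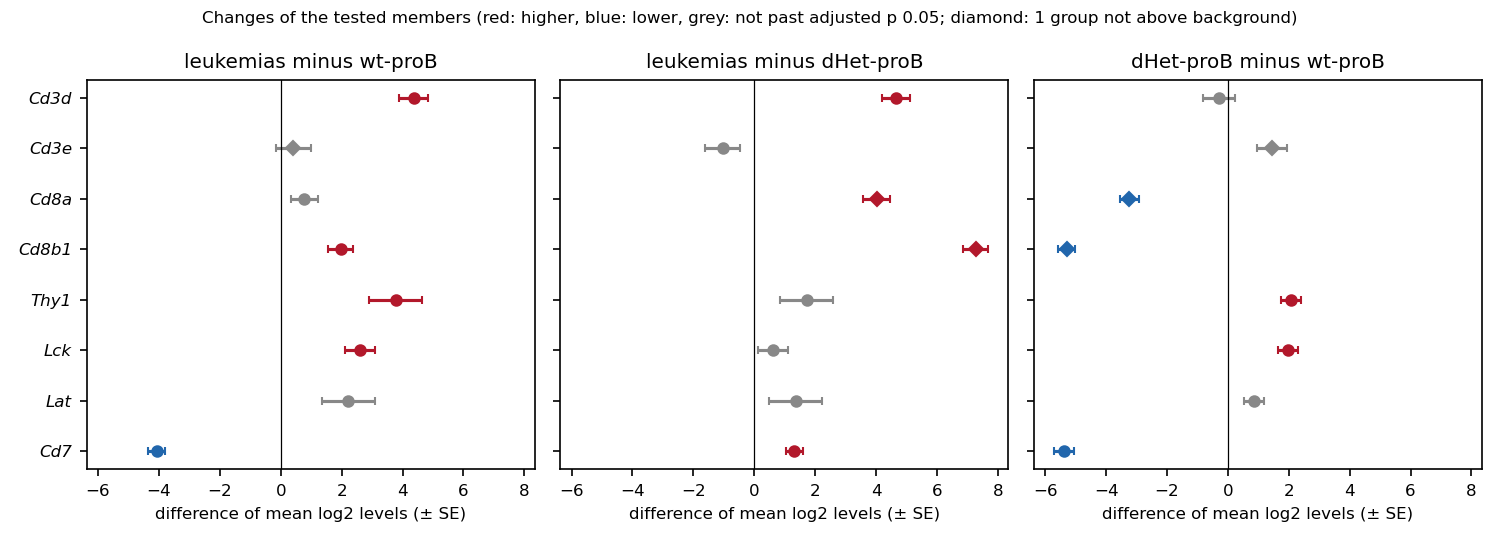
Difference of mean log2 levels with its SE (horizontal axis) for the 8 tested genes in leukemias minus wt pro-B, leukemias minus dHet pro-B and dHet pro-B minus wt pro-B cells, where red and blue passed the adjusted threshold and diamonds mark a comparison in which no array of 1 group was above background, plotted at the measured means. Cd7 lies at -4.07 and -5.38 relative to wt, while Cd3d lies at 4.37 and 4.65 for the leukemias and at -0.29 between pro-B groups.

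The leukemias divided the members into genes lowest in 760 and genes highest in 760. Lat was 2.79 ± 0.28 higher in leukemia 760 than in the other leukemias (6.92-fold, adjusted p = 0.00154), Thy1 was 2.72 ± 0.28 higher (6.57-fold, adjusted p = 0.00178) and Lck 1.19 ± 0.30 higher (2.29-fold, adjusted p = 0.0490). Both arrays of 760 were above all 4 other leukemia arrays for each of these. On the other side, Cd8b1 fell by 1.25 ± 0.24 in 760 (2.38-fold lower, adjusted p = 0.0193) and Cd8a fell by 1.22 ± 0.27 (2.33-fold lower, adjusted p = 0.0311), again without overlap. Cd3d differed by -1.25 ± 0.46 (adjusted p = 0.163), Cd3e by -1.06 ± 0.43 (adjusted p = 0.214) and Cd7 by -0.54 ± 0.28 (adjusted p = 0.340). With slide 1 as a fixed block, Cd3d in 760 passed at the same difference (adjusted p = 0.0158), as it did with the slide as a random block (adjusted p = 0.0156).

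Within slides the split was alike. Thy1 stood 2.69 above the other leukemias on slide 1 and 2.75 on slide 2, Lat 2.67 and 2.91, and Lck 1.19 and 1.20. Cd8a stood at -1.22 on each slide, Cd8b1 at -1.13 and -1.37, and Cd3d at -1.21 and -1.30. Of the 8 tested genes, 3 rose and 2 fell in 760, where 4.85% of all genes rose and 6.18% fell, and 7 had both 760 arrays outside the range of the other leukemia arrays, against 21.3% of all genes. The call for Cd8a was lost in 10 of 20 alternative settings, among them leaving out either 760 array (-1.37 and -1.08), and that for Lck in 10 of 20, among them leaving out either 760 array (0.88 and 1.51) or any single pro-B array. Without replicate 2 of 760, Cd8b1 was at -0.93 (adjusted p = 0.107), whereas Lat and Thy1 kept their calls in all 20 settings.

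The other leukemias differed less. In 686, Lat fell by 1.66 ± 0.28 (adjusted p = 0.0282), as 1 of 8 tested genes against 2.05% of all genes falling, and none rose, against 1.50%, nor at an unadjusted p under 0.05 (0 genes). Lck was at -1.45 ± 0.30 (adjusted p = 0.0521), and with the replicate number, which is the slide here, as a block it passed at the same difference (adjusted p = 0.0367). In 713, Thy1 fell by 1.51 ± 0.28 (adjusted p = 0.0143) and Lat by 1.13 ± 0.28 (adjusted p = 0.0413), 2 of 8 against 5.75% of all genes falling, and none rose, against 8.05%, with 2 higher at an unadjusted p under 0.05. Cd8b1 was at 0.82 ± 0.24 in 713 (adjusted p = 0.0715) and passed with that block (adjusted p = 0.0472). Leukemia 760 is among the leukemias that 686 and 713 were each set against. The call for Lat was lost in 8 of 20 alternative settings in 686, among them leaving out replicate 2 of 686 (-1.32, adjusted p = 0.0625), and in 11 of 20 in 713, among them leaving out replicate 2 of 713 (-0.83, adjusted p = 0.236), which also ended the call for Thy1 (-1.31, adjusted p = 0.107).

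**Figure D3:**
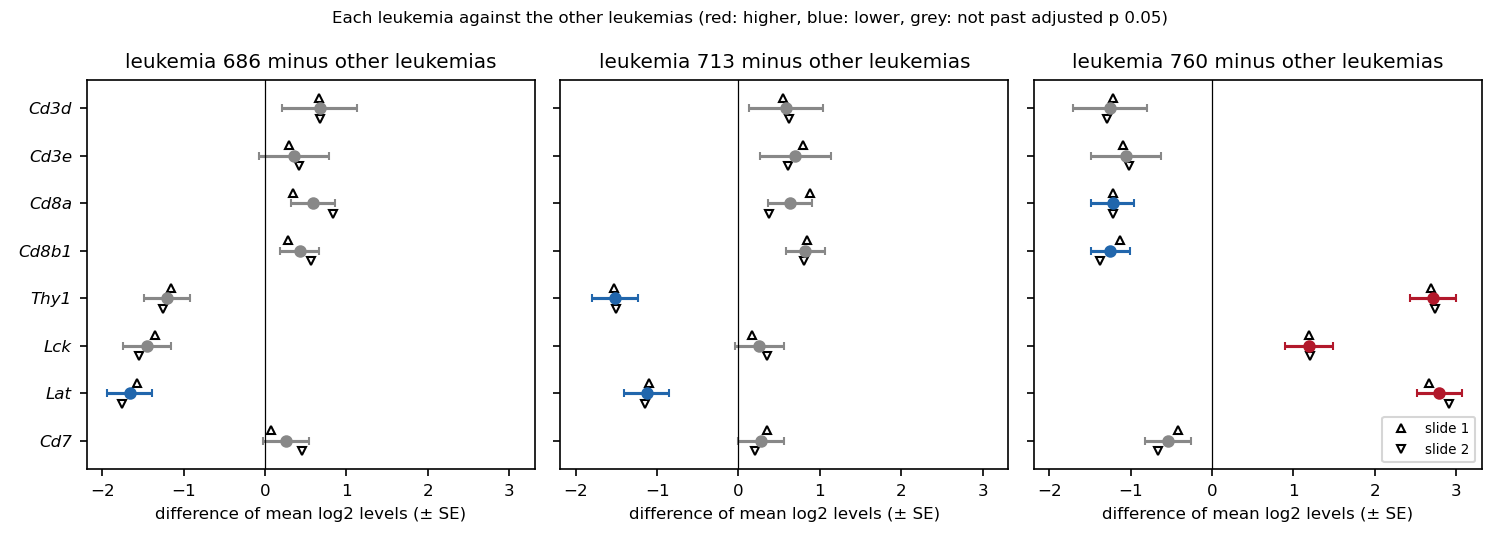
Difference of mean log2 levels with its SE (horizontal axis) of each leukemia against the other leukemias for the 8 tested genes, with triangles for the differences within slide 1 (up) and slide 2 (down) and red and blue for calls past the adjusted threshold. In leukemia 760, Lat, Thy1 and Lck lie at 2.79, 2.72 and 1.19 while Cd8b1 and Cd8a lie at -1.25 and -1.22, and the triangles fall close together.

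The 4 T cell lists covered receptor chains, proximal signalling, coreceptors and costimulation, and transcription factors. Of their 62 genes on the array, 33 were detected on all 10 arrays, 21 on some, 2 on 1 array and 6 on none. Those on none were Trac, Ptcra, Themis, Cd28, Ctla4 and Foxp3 (the alpha constant chain, the pre-T receptor chain, a thymocyte selection gene, the costimulatory and inhibitory receptors and the regulatory T cell factor), named here after their values were seen. Tcrb-J, a beta chain segment, was detected on replicate 2 of leukemia 713 only, and Gata3, a helper T cell factor, on replicate 2 of leukemia 760 only. Other genes of the same lists were detected widely, Cd6 and Tcf7 on all 10 arrays, Il2rb on all 6 leukemia arrays and no wt array, and Bcl11b on 4 of 6 leukemia arrays and no wt array. Among 11 probes named for T cell receptor segments, a set chosen after values were seen, 1 to 3 were detected per leukemia array, 1 on each dHet pro-B array and none on the wt arrays. Of these, a Trgv2 probe, for a gamma chain variable segment, had -0.18 and -2.41 in 686, 2.27 and 1.70 in 713 and 3.32 and 2.81 in 760, against 1.51 and 1.40 in the Rag2-deficient dHet pro-B cells and undetected values of -5.72 and -6.06 in wt pro-B cells. A second Trgv2 probe was detected only on replicate 1 of leukemia 686. Such probes can share sequence with other segments of the family.

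Cd247, the zeta chain gene, went with Lat and Thy1 in 760. It had -2.75 and -2.78 in 686, -2.47 and -3.03 in 713 and 0.66 and 0.20 in 760, against -4.05 and -3.53 in dHet pro-B cells and -3.33 and -4.57 in wt pro-B cells. It was 3.18 ± 0.37 higher in 760 than in the other leukemias (adjusted p = 0.00282). Leukemia 713 was 1.58 ± 0.37 below the mean of the other leukemias (adjusted p = 0.0356). That mean includes 760, and the levels of 713 were close to those of 686. Of 8 receptor chain genes listed, 4 were on the array, without Trbc1, Trbc2, Trdc and Trgc1. The summed level of the 4 receptor chain genes on the array ran from -2.27 to 0.72 in leukemias. It was -3.17 to -2.96 in dHet pro-B cells and -3.38 to -2.81 in wt pro-B cells, with 0 to 2 of the genes detected on any array.

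The wider T lists moved both ways. Of 29 tested genes of proximal T cell receptor signalling (of 30 listed), 6 rose and 6 fell in leukemias relative to wt. Of all genes 31.3% rose and 27.6% fell, and the median was -0.28 against 0.06 over all genes. The adaptor genes Sla2 (3.08 ± 0.32) and Grap2 (2.11 ± 0.13) rose, and the ubiquitin ligase gene Cblb (fell by 3.66 ± 0.29) and the Ras activator gene Rasgrp1 (fell by 2.35 ± 0.16) were lower. In leukemia 760, 1 of the 29 rose and 5 fell, against 4.85% and 6.18% of all genes. Ubash3a, a phosphatase-like regulator of the receptor, was 2.71 ± 0.31 higher (adjusted p = 0.00251), and the adaptor gene Fyb fell by 2.12 ± 0.16. Relative to dHet pro-B cells 10 of the 29 rose and 7 fell, against 21.8% and 24.5% of all genes. In leukemia 713, 6 rose and none fell (1 lower at an unadjusted p under 0.05), against 8.05% and 5.75%, with Skap1 3.35 ± 0.54 higher.

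Of 13 tested T cell lineage coreceptor and costimulation genes (of 15), 5 rose and 4 fell in leukemias relative to wt, with a median of -0.06. Of all genes 31.3% rose and 27.6% fell. Il2rb, an interleukin-2 receptor chain, was at least 7.41-fold higher and Icos at least 3.02-fold higher, and Cd6 rose by 2.02 ± 0.57, while S1pr1, the egress receptor gene, fell by 4.56 ± 1.26. Of 11 tested T lineage transcription factor genes (of 13), 5 rose and 2 fell in leukemias relative to wt, against the same 31.3% and 27.6%. Tcf7, which encodes TCF-1, rose by 3.54 ± 0.52 (adjusted p = 0.00242), and the Notch pathway gene Dtx1 fell by 5.13 ± 1.36. In leukemia 713, 3 of these 11 rose and 1 fell, against 8.05% and 5.75% of all genes. In leukemia 760, 3 rose and 2 fell, against 4.85% and 6.18%. Tox at 3.49 ± 0.37 and Lef1 at 1.63 ± 0.19 were higher in 760, and Zbtb7b, the helper lineage factor gene, fell by 2.74 ± 0.21.

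Of 8 tested NK and cytotoxic markers (of 12), 4 rose and none fell in leukemias relative to wt (0 lower at an unadjusted p under 0.05), with a median of 1.99. Of all genes 31.3% rose and 27.6% fell. The chemokine gene Ccl5 rose by 3.84 ± 0.81, the protease inhibitor gene Cst7 by 4.34 ± 0.38 and the granule protein gene Nkg7 by 4.10 (adjusted p = 0.0211). Between dHet and wt pro-B cells 2 of the 8 rose and 1 fell, against 15.6% and 14.2% of all genes. Cst7 was 4.59 ± 0.32 higher in dHet than in wt pro-B cells, and Ccl5 fell by 2.45 ± 0.42. In 760, 1 of the 8 rose and 3 fell, with a median of -1.39, against 4.85% and 6.18% of all genes. Nkg7 was 3.44 ± 0.37 higher there, while Ccl5 fell by 2.27 ± 0.37, Klrd1 by 2.10 ± 0.26 and Gzma by 2.78 ± 0.69. The summed level of the 12 markers was 4.58 to 5.63 in leukemias, 4.36 to 4.49 in dHet pro-B cells and 1.73 to 2.05 in wt pro-B cells, with 5 to 11, 6, and 6 to 8 detected. What such cells, or T cells of the lymph node, contribute to the member levels was not tested.

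**Figure D4:**
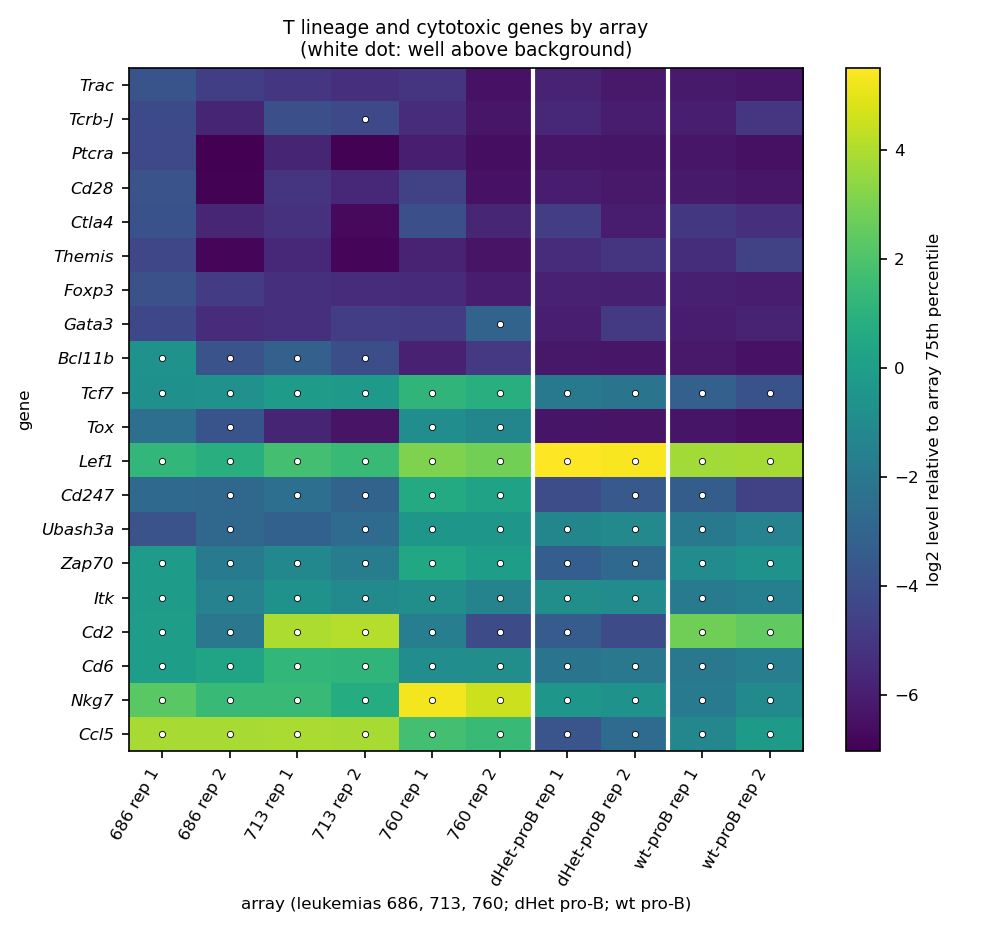
Log2 level relative to the array's 75th percentile (colour) of 20 T lineage and cytotoxic genes (rows, chosen after their values were seen) on the 10 arrays (columns), with a white dot where the array was well above background. Trac, Ptcra, Cd28, Ctla4, Themis and Foxp3 have no dot on any array, and Cd247 is at 0.66 and 0.20 in leukemia 760 while it is at -2.47 or lower elsewhere.

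Other marker lists also differed between the leukemias and beside Cd3d. The summed level of the myeloid markers ran between 3.81 and 7.17 over the leukemia arrays. Of 9 tested, 6 rose in 686, against 1.50% of all genes, and 6 fell in 760, against 6.18%. In 760 the macrophage receptor gene Csf1r fell by 2.52 ± 0.35 and the lysozyme gene Lyz1 by 2.40 ± 0.24. The dendritic integrin gene Itgax was at least 4.31-fold lower in 760. Of 5 tested lymph node stroma and endothelial markers (of 10), 2 rose and 2 fell in leukemias relative to wt, against 31.3% and 27.6% of all genes. Relative to dHet pro-B cells 1 rose and 1 fell, against 21.8% and 24.5%. With the pro-B arrays at their dimmest detected level, the stromal chemokine gene Ccl19 was 4.94-fold higher in leukemias than in wt and 4.76-fold higher than in dHet pro-B cells. These are not lower bounds, since it was detected on 4 of 6 leukemia arrays and on no pro-B array. It fell by 1.87 ± 0.19 in 760 and was 1.37 ± 0.19 higher in 713. Its r with Cd3d was 0.962 over the 10 arrays and 0.690 over the 6 leukemia arrays. Ccl21a, another stromal chemokine gene also detected on 4 of 6 leukemia arrays, was 2.82-fold higher in leukemias than in wt pro-B cells on the same reckoning. The endothelial cadherin gene Cdh5 fell by 2.76 ± 0.68. Over the 10 arrays the other tested markers of this list went both ways with Cd3d. Their r was 0.779 for Ccl21a, 0.476 for Col1a2, -0.125 for Cdh5 and -0.879 for Pecam1. The summed level of the stroma markers ran from 0.46 to 1.65 in leukemias, 1.69 to 1.75 in dHet pro-B and 1.51 to 1.56 in wt pro-B cells.

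Erythroid markers were unequal too. Their summed level ran from 4.02 to 6.67 in leukemias, 3.14 to 3.23 in dHet pro-B and 2.68 to 2.83 in wt pro-B cells. Of 4 tested markers 2 were higher and 1 lower in leukemias than in dHet pro-B cells, against 21.8% and 24.5% of all genes. The hemoglobin gene Hba-a1 was at least 235.6-fold higher in leukemias than in dHet pro-B cells, fell by 3.99 ± 0.68 in 686 and was 3.20 ± 0.68 higher in 713. Cd8a, Cd8b1 and Cd3d were lowest in 760, as were Csf1r and Ccl19, which are named for the size of their changes. In 760, 6 of 9 tested myeloid, 3 of 6 dendritic, 1 of 5 stroma and 1 of 4 erythroid markers fell, against 6.18% of all genes. The part of myeloid, dendritic, stromal or erythroid cells in the member levels was not tested.

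The genes most like the mean standardized pattern of Cd3d, Cd3e and Cd3g over the 10 arrays, of 12138 genes with a name, were Acot6 (r = 0.964), Bcl2l15 (r = 0.963), Ugt1a6b (r = 0.962), Mapre2 (r = 0.953), Cdc34 (r = 0.952), Stimate (r = 0.950), Flt3 (r = 0.948) and Prelid3b (r = 0.948). Those most like Cd7 were Dnajc7 (r = 0.982), Srpk3 (r = 0.980), Nfkbid (r = 0.980), Acbd4 (r = 0.974) and Chst15 (r = 0.972). These values rank genes over 5 groups of 2 arrays and carry no test, and in the CD3 pattern Cd3e was detected on 4 and Cd3g on 3 of the 10 arrays. Cd3d by itself correlated with genes of the 4 T cell lists at values from r = -0.912 (Ccr7) to r = 0.983 (Il2rb).

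Which members moved together depended on whether the pro-B arrays were included. Lat and Thy1 correlated at r = 0.95 over the 10 arrays and at 0.98 over the 6 leukemia arrays, and Lck and Thy1 at 0.90 and 0.72. Cd8a and Cd8b1 correlated at 0.98 and 0.96, and Cd3d and Cd8b1 at 0.83 and 0.93. By contrast Thy1 and Cd8a correlated at 0.15 over the 10 arrays and -0.90 over the leukemia arrays, Cd7 and Cd3d at -0.27 and 0.96, and Cd3d and Cd3g at 0.84 and -0.27. All values over the leukemia arrays mix slides. Cd3d, Cd7 and Cd8b1 were each lower on slide 2 than on slide 1 in every leukemia. By contrast Cd3g was not above background on slide 1, where Cd3d was higher. Within slides 1 and 2 both were lower in 760 than in the other leukemias, Cd3d by -1.21 and -1.30 and Cd3g by -0.32 and -1.02. The leukemia arrays are 3 mice with 2 arrays each on 2 slides, so these values describe the arrays.

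Promoters of 6 members had an entry in the RefSeq table used (build GRCm38.p6), with a pair of promoters for Lck. Shown are those of Cd3d, which was higher in all leukemias than in pro-B cells, and Lat, which was highest in 760, over the 250 bases before the start, at chr9:44981536-44981785 (plus strand) and chr7:126369569-126369818 (minus strand). Capitals mark AGGAAG, a core bound by ETS factors, and CTTTGA, a core bound by TCF and LEF factors, each on either strand.
Cd3d: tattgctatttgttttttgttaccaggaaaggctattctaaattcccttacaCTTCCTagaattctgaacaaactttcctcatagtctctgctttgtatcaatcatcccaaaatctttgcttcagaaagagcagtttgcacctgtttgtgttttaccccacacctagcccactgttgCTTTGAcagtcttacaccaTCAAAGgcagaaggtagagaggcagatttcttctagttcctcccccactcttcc
Lat: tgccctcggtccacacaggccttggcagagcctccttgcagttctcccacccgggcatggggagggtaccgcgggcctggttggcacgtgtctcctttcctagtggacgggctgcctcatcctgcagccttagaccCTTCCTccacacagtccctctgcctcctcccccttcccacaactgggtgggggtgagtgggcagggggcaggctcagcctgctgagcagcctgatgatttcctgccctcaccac
AGGAAG occurred 1 time in Cd3d, 1 time in Lat, 3 times and 1 time in the Lck promoters, 2 times in Cd3e and not in Cd3g or Cd8a, and 29.5% of 32851 promoters held it. CTTTGA occurred 2 times in Cd3d and in none of the other 6 windows, and 13.8% of promoters held it. The E-box CANNTG occurred in Cd3d, Cd3e, Cd3g, Cd8a, Lat and 1 Lck promoter, and 66.2% of promoters held it. TGTGGT, a RUNX core, occurred 1 time, in an Lck promoter, and 14.0% held it, and the palindromic EBF core occurred in none of the windows, with 0.779% holding it. A match is a description of letters and not of binding.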

How the data were processed

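Total RNA was measured on 10 one-colour arrays. Per the file headers, the intensity values in the deposited scanner files were written by Feature Extraction 10.5.1.1, while the submitters' processing notes name version 9.1. The scanner software corrected background within each array. The authors' deposited value table holds log2 values with column medians between 6.83 and 6.85, whose centring and floor are unknown.

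Spots marked as outliers were left out, except where all spots of a probe were marked (211 probes on some array). Log2 processed signals of a probe were averaged, and the array's 75th percentile was then taken off each value. A probe was kept when detected on all arrays of at least 1 group (22300 of 41174). The tests were those of limma (version 3.58.1, under R 4.3.3, reading with data.table at version 1.17.8), with Benjamini-Hochberg adjustment over all kept probes and a threshold of 0.05. Leukemias against pro-B cells used 3 mouse means beside 2 arrays of each pro-B group, leaving 4 degrees of freedom. The other comparisons used 10 arrays in 5 groups with 5 degrees of freedom, each leukemia being set against the mean of the other leukemias. Where 1 group was undetected, a value against its dimmest detected levels is given, which is a bound only where all arrays of the other side were detected. The tests were checked on simulated data. Number of arrays limits the precision.

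Same-numbered leukemia arrays deviated together (correlations of 0.44 to 0.63 over 3 pairs of leukemias), and their number is also their slide and scan day, while the 7 pairs with a pro-B group gave -0.04 to 0.08. Named are all members, 8 genes most like the CD3 chains and 5 most like Cd7. For each list and comparison up to 4 genes with the largest changes past the threshold were picked out, and only some of these are named. The members and lists were chosen with earlier results of these data known. Probe coordinates are mm9, per the file headers, and promoters GRCm38.p6.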

Additional observations from a re-analysis of the deposited data

Results flagged for a closer look

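Results that differed between the leukemias by the test of the difference itself are these. In leukemia 760 relative to the other leukemias, Lat was 2.79 and Thy1 2.72 higher on the log2 scale, Lck was 1.19 higher, and Cd8b1 and Cd8a differed by -1.25 and -1.22. In leukemia 713 Thy1 differed by -1.51 and Lat by -1.13. Lat differed by -1.66 in leukemia 686. The differences in 713 and 686 are against a mean that includes 760. Mean Thy1 was 2.34 in 686, 2.13 in 713 and 4.95 in 760, and mean Lat was 1.15, 1.51 and 4.12. All arrays of 760 lay outside the other leukemias' range in the 5 genes, and each leukemia is 1 mouse, so that mouse and leukemia cannot be told apart.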

How the results depend on the processing

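Over 26 alternatives, 957 of 1056 recomputed member differences kept direction and side of the threshold, 48 lost it, 43 gained it and 8 reversed; the causes were not tested. Between leukemias and pro-B cells no count moved over 1.5 times except that leukemias relative to wt had 2 to 6 rises when arrays or mice were left out (2 without wt-proB replicate 1). Left-out ranges were 1 fall relative to wt, 3 to 5 rises and 0 falls relative to dHet pro-B, 2 to 3 rises and 3 falls between pro-B groups, 0 rises and 0 to 2 falls in 686, 0 to 1 rises and 0 to 2 falls in 713, and 2 to 3 rises and 0 to 3 falls in 760. Rises between pro-B groups numbered 4 with array-median scaling and with the slide as a random block. In 713, 1 rise was called with normexp, the authors' values, scaling on probes detected on all arrays, the replicate block, the slide as a random block and slide 1 as a fixed block (added after seeing the data), and falls numbered 1 with array-median scaling. Falls in 686 numbered 3 with normexp, the authors' values, array-median scaling, the slide as a random block and the fixed block, 2 with quantile normalization, scaling on detected probes, 1 probe per gene and the replicate block. Without a filter on dim probes, 686, 713 and 760 had 0 falls. In 760 they numbered 1 with quantile normalization and the authors' values and 0 with array-median scaling. Reversed were Cd3e in 686 (-0.0314 with normexp, -0.70 with quantile normalization, -0.0227 with the authors' values), Cd7 in 686 (-0.0907 with array-median scaling) and Cd3d between pro-B groups (0.0621 with quantile normalization, 0.0028 with the authors' values, 0.0658 with array-median scaling, and between -0.6904 and 0.1152 when an array was left out, above 0 without dHet-proB replicate 2). Beside Lck in 686 and Cd8b1 in 713, the replicate block changed the call of Cd3e between pro-B groups (1.44, adjusted p = 0.0340) and no other member call.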
